A study of Mus musculus with 40 samples.

Results

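Selenoproteins contain selenocysteine, an amino acid that ribosomes insert at UGA codons with the help of a stem-loop in the 3′ untranslated part of the mRNA and a set of dedicated factors. Most of the known members are oxidoreductases, among them glutathione peroxidases, thioredoxin reductases, iodothyronine deiodinases and a methionine sulfoxide reductase, and the liver makes the selenium carrier of plasma, selenoprotein P. Transcripts of several of these genes are known to decay when selenium is scarce. The 10 genes described here are Selenow, Selenop, Selenof, Selenos, Gpx1, Gpx4, Txnrd1, Txnrd2, Dio1 and Msrb1, out of 24 mouse selenoprotein genes that were listed and 40594 genes in both count tables. They were chosen by symbol with their normalised counts in comparisons within each genotype already known, so their levels and differences are given as a description, and calls among them are only counted beside those of all genes.

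Liver RNA of 40 male mice aged 5 months, all labelled C57BL6/J, was sequenced after poly-A selection, in 8 groups of 5 mice. Wild-type (WT) mice and mice with a liver-specific PPARγ knockout (KO), made with loxP-flanked PPARγ and a Cre driven by the albumin promoter, were fed a control diet or a high-fat diet (HFD), each with or without pioglitazone (Pio; the group with both is HFD-Pio). Pioglitazone is an agonist of PPARγ. It made up 0.01% of the supplemented diets by weight, the diets began at 2 months of age and ran for 3 months, and fat gave 60% of the calories of the HFD. The WT controls were not described as floxed or Cre-carrying littermates. WT and KO mice have separate count tables, a split that follows genotype exactly, and levels were therefore compared within each genotype. Libraries held 15788242 to 49857017 counts in WT mice and 21542958 to 28334251 in KO mice. Levels below are CPM, counts scaled to the TMM-normalised size of each library, and group means are given ± SD (n = 5 mice) unless stated. Log2 fold changes are given ± the standard error of the fit.

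The targeted gene, Pparg (ENSMUSG00000000440), had 5.79 to 14.2 CPM in single WT mice and 3.01 to 9.90 CPM in single KO mice. Its count covers the whole gene, the deleted part cannot be read separately from it, and cells outside the hepatocyte lineage keep the gene, so the gene totals give no measure of the deletion. All 7 hepatocyte markers were detected, with Alb the most abundant, and their summed level was 74148 to 151357 CPM in WT and 32637 to 130862 CPM in KO mice. The lowest of these sums, 32637 CPM, belonged to KO Pio mouse 13. The lowest in WT mice, 74148 CPM, belonged to WT control mouse 832, with WT Pio mice 845 and 841 next at 75638 and 76736 CPM. Markers of other cells were lower. The summed levels over all mice were 147 to 2029 CPM for 5 blood genes (most abundant Hbb-bs), 182 to 953 CPM for 8 macrophage genes (Cd5l), 32.4 to 116 CPM for 5 cholangiocyte genes (Spp1), 71.1 to 450.2 CPM for 6 stellate genes (Rgs5) and 93.9 to 289 CPM for 5 endothelial genes (Stab2). The 5 adipocyte genes summed to 184 to 5201 CPM, nearly all of it from Car3, which hepatocytes also express. In WT mice this sum was 1054 to 1919.5 CPM in control, 2409 to 4546 in Pio, 2917 to 5098 in HFD and 4076 to 5201 in HFD-Pio mice. In KO mice it was 812 to 1762, 473 to 1374, 184 to 2161 and 1176 to 2373 CPM in the same order. The lowest, 184 CPM, was KO HFD mouse 9, against 1911 to 2161 in the rest of its group. That mouse also had the highest macrophage sum, 953 CPM. Pancreatic acinar genes reached 539.6 CPM in 1 KO HFD mouse, with Amy2a5 at 0 in all mice, and 4 skeletal muscle genes summed to at most 11.3 CPM. The part of these markers in the results below was not tested. In whole liver, fewer cells of a type and less RNA per cell cannot be told apart.

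Libraries differed in base composition, and a pair of them stood above the rest. For each mouse the median log2 level of the GC-richest 10% of tested genes was set against that of the GC-poorest 10%, relative to the mean of its genotype. This GC difference was 3.40 in KO Pio mouse 13 and -0.26 to -0.06 in the other 19 KO mice. It was 0.79 in WT HFD mouse 829 and -0.58 to 0.37 in the other 19 WT mice, of which WT Pio mouse 845 was the lowest, with the next at -0.28. KO Pio mouse 13 also had 10663 CPM of Alb against 70731 to 97369 in the other KO Pio mice, and 102575 CPM of Apoe, another abundant liver transcript, against 12589.9 to 16955. WT control mouse 832, with a GC difference of -0.1, had 11637 CPM of Apoe against 23439 to 28568 in the other WT control mice. Values without mouse 13, mouse 829 or mouse 845 are given beside several of the results. Mouse 832 was left out only among the fits that leave out each mouse in turn. The genes differ in GC content themselves, from 40.5% in Selenop to 55.3% in Gpx1 among the 9 tested.

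**Figure D1:**
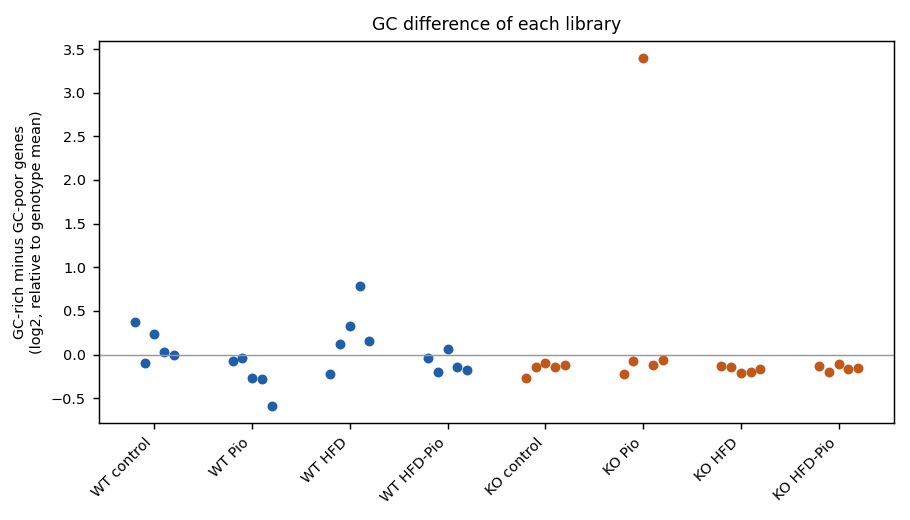
Difference in log2 level between GC-rich and GC-poor genes (y axis) for each of 40 livers, by group (x axis); each point is 1 mouse. KO Pio mouse 13 lies at 3.40 and WT HFD mouse 829 at 0.79, above every other library.

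Of the 10 genes, 9 passed the filter of at least 1 CPM in at least 5 mice. The exception was Txnrd2, the mitochondrial thioredoxin reductase, which has 2 Ensembl identifiers in the tables. The first (ENSMUSG00000075704) held 35 counts over 20 WT mice and 29 over 20 KO mice, with at most 5 in a mouse, and the second (ENSMUSG00000099282) held 0. Only reads assigned to a single gene were counted, and the level of Txnrd2 is therefore given as uncertain. Selenop shares 15.4% of its exon bases with Ccdc152, and without a stated strand setting the reads of that part cannot be assigned with certainty. The other 8 tested genes share no exon base with another annotated gene.

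Levels were compared between genes per kilobase of annotated exon, on which scale the genes spanned a wide range. Selenop was the most abundant, with 1728 ± 363 CPM per kb in WT control and 2369 ± 292 in KO control mice. Gpx1, the cytosolic glutathione peroxidase, followed with 1155 ± 221 and 976 ± 155 CPM per kb. Msrb1, which reduces methionine-R-sulfoxide, had 276 ± 93.7 and 242 ± 19.4, and Selenow, a small thioredoxin-like protein, 162 ± 79.3 and 75.4 ± 5.20 CPM per kb. In WT control mice the ranges of Msrb1 and Selenow overlapped, whereas Selenop and Gpx1, which overlapped with each other, lay above both in every mouse. Dio1, Selenos, Txnrd1 and Gpx4 formed a lower tier of 48.7 ± 21.4, 34.5 ± 2.14, 29.2 ± 2.91 and 28.8 ± 5.05 CPM per kb in WT control mice, neighbours whose ranges over mice overlapped. Selenof, a protein of the endoplasmic reticulum, was lowest, with 15.3 ± 2.43 CPM per kb in WT control mice, whereas in KO control mice Gpx4 was lowest with 19.0 ± 0.649 CPM per kb. Exon length here is the union over all annotated transcripts, so a gene with long unused exons is placed too low.

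**Figure D2:**
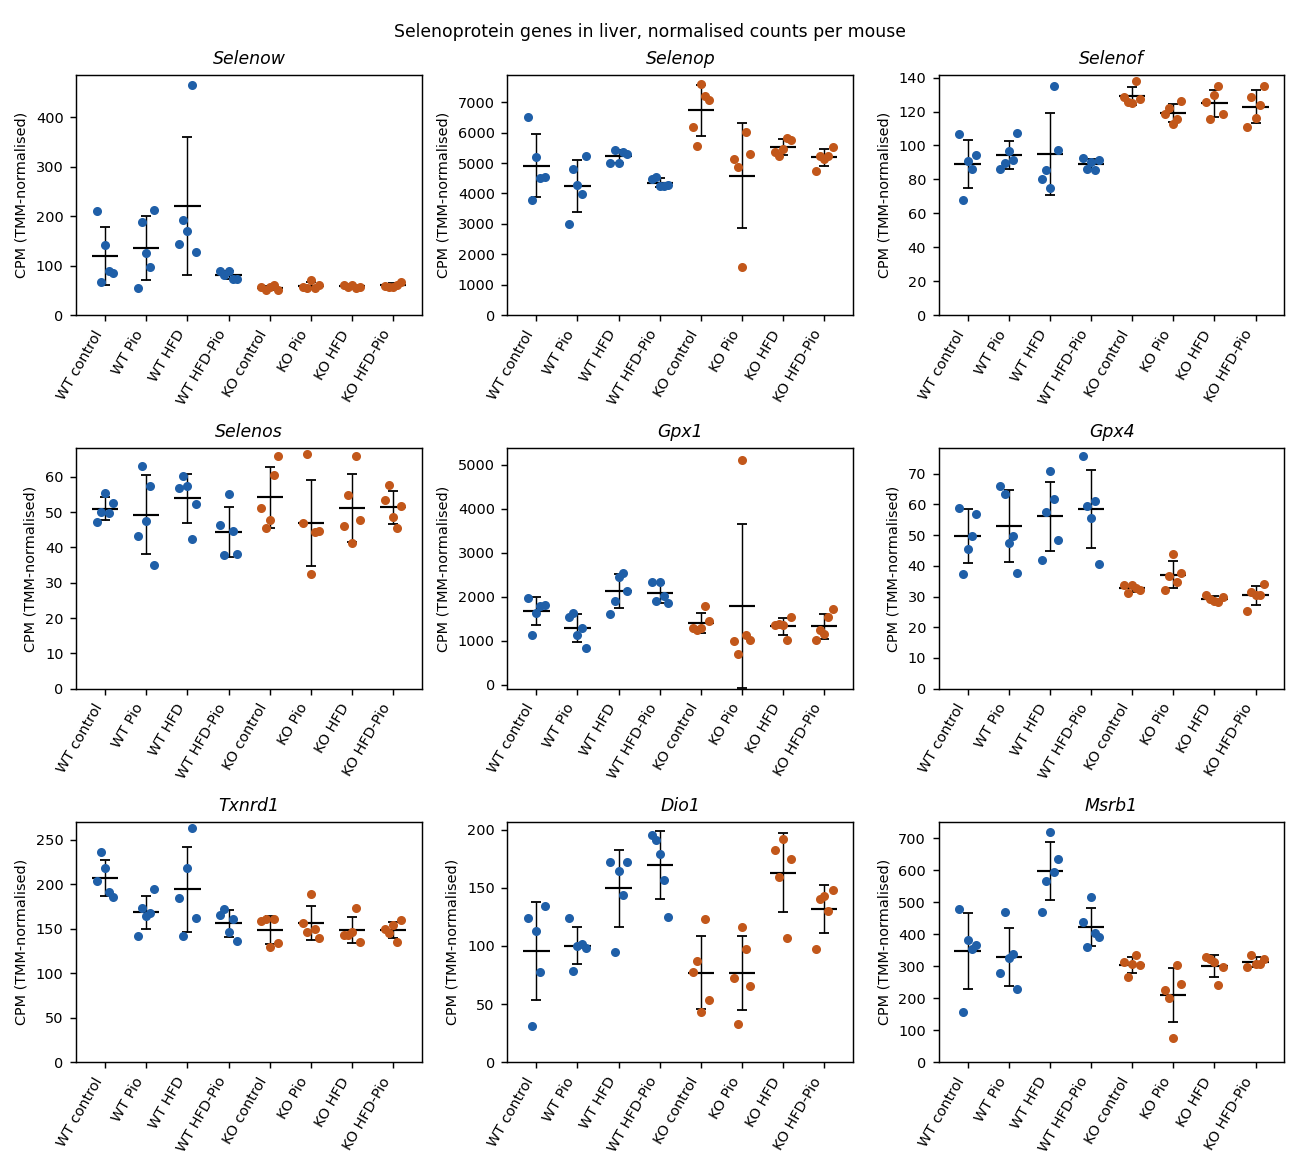
Normalised counts (CPM, y axes) of 9 selenoprotein genes in 8 groups (x axes); each point is 1 mouse (blue WT, orange KO), horizontal lines are group means and bars 1 SD. Selenow spans 55.0 to 466 CPM in WT mice and 51.6 to 71.3 CPM in KO mice.

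Selenow (ENSMUSG00000041571, chr7:15917208-15922402, minus strand) spread widely among WT mice. Its levels were 211, 67.6, 142, 89.1 and 86.0 CPM in WT control mice 831 to 835 and 55.0, 189, 126, 97.4 and 213 CPM in WT Pio mice 841 to 845. WT HFD mice 826 to 830 had 145, 193, 169, 466 and 128 CPM, and WT HFD-Pio mice 836 to 840 had 90.0, 81.6, 88.8, 73.6 and 72.3 CPM. Every WT HFD-Pio mouse lay below every WT HFD mouse, whereas the other WT groups overlapped. Mouse 829 was the highest of all. Group means were 220.4 ± 139.6 CPM on HFD and 81.3 ± 8.25 CPM on HFD-Pio, and the HFD mean was 159 ± 28.4 (n = 4) without mouse 829. The log2 fold change of HFD-Pio against HFD was -1.44 ± 0.29, and -0.95 without both libraries. For HFD against control in WT mice the difference of 0.89 ± 0.28 shrank to 0.41 without both libraries. KO mice held 51.6 to 71.3 CPM (51.6 to 67.9 without mouse 13) in all 4 groups, and their log2 fold changes lay between 0.01 and 0.11, and between 0.05 and 0.09 without mouse 13. The coefficient of variation of Selenow was 49.0%, 47.8% and 63.3% in WT control, WT Pio and WT HFD mice and 10.1% in WT HFD-Pio mice, and in WT HFD mice it was 17.9% without mouse 829. It was 11.3% in KO Pio mice, 4.64% without mouse 13, and 3.40% to 7.49% in the other KO groups.

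Gpx1 (ENSMUSG00000063856, chr9:108338903-108340343, plus strand) removes hydrogen peroxide with glutathione. WT control mice had 1959.7, 1136, 1627, 1794 and 1805 CPM and WT Pio mice 1536, 1637, 1131, 1279.9 and 843 CPM. WT HFD mice had 1604, 1900.1, 2451, 2537 and 2124 CPM and WT HFD-Pio mice 2337, 1902, 2329, 2006 and 1863 CPM. All 5 WT HFD-Pio mice lay above all 5 WT Pio mice, with a log2 fold change of 0.70 ± 0.32 (0.58 without WT Pio mouse 845, the lowest), while control and Pio mice overlapped. In KO Pio mice the values were 987, 689, 5117, 1131 and 1008 CPM, and the highest was mouse 13. With that mouse the KO Pio mean was 1786 ± 1869 CPM, and without it 954 ± 188 CPM (n = 4), against 1406 ± 224 CPM in KO control mice. The direction of the KO Pio difference turned with mouse 13, from 0.35 ± 0.32 with all mice to -0.54 without it. KO HFD-Pio against Pio likewise turned from -0.42 to 0.48. KO HFD and KO HFD-Pio mice had 1322 ± 193 and 1332 ± 286 CPM.

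Gpx4 (ENSMUSG00000075706, chr10:80047166-80056439, plus strand), which reduces lipid hydroperoxides in membranes, varied little between groups. WT mice ranged from 37.5 to 75.8 CPM and KO mice from 25.2 to 44.0 CPM (25.2 to 37.6 without mouse 13). All 5 KO HFD mice (28.3 to 30.5 CPM) lay below all 5 KO control mice (31.3 to 33.9 CPM), with a small log2 fold change of -0.16 ± 0.15. The coefficient of variation was 3.01% and 3.42% in these groups and 10.5% to 22.2% in the others, which also enter that standard error. The log2 fold changes of Gpx4 in the other 7 comparisons lay between -0.29 and 0.18.

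Selenop (ENSMUSG00000064373, chr15:3268547-3280508, plus strand), the plasma selenium carrier, had the highest mean level per length of the 9 genes in both control groups. WT HFD mice held 5002, 5433, 4991, 5380.1 and 5311 CPM and WT HFD-Pio mice 4467, 4557, 4232, 4229.9 and 4283 CPM. These groups did not overlap, but the log2 fold change was small, -0.26 ± 0.20. WT control and WT Pio mice spread more widely, with 4912 ± 1032 and 4253 ± 851 CPM. Among KO mice the control group had 6197, 5570.0, 7609, 7221 and 7071 CPM and the Pio group 5148, 4856, 1579, 6027 and 5306 CPM. Mouse 13 was far the lowest of all 40 mice, and the remaining KO Pio mice overlapped with KO control mice. The difference was -0.56 ± 0.20 with all mice and -0.32 without mouse 13. KO HFD and KO HFD-Pio mice had 5525 ± 253 and 5183 ± 282 CPM.

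Dio1 (ENSMUSG00000034785, chr4:107291465-107307169, minus strand), the deiodinase that converts thyroxine to triiodothyronine in liver, had higher means on HFD in both genotypes. WT control mice had 124, 30.7, 113, 77.8 and 134 CPM, WT Pio mice 124, 78.1, 100.3, 101 and 97.9 CPM, WT HFD mice 172, 94.6, 165, 144 and 172 CPM and WT HFD-Pio mice 195, 191, 179, 157 and 125 CPM. Every WT HFD-Pio mouse was above every WT Pio mouse, whereas WT HFD and control mice overlapped. KO control mice had 77.8, 86.7, 43.6, 123 and 53.2 CPM, KO Pio mice 72.3, 32.5, 116, 97.2 and 65.4 CPM, KO HFD mice 182, 159.6, 192, 106 and 175 CPM and KO HFD-Pio mice 97.4, 141, 143, 129.9 and 148 CPM. In KO mice the groups on HFD overlapped with those on control diet through single mice. KO HFD mouse 9 (106 CPM) lay below KO control mouse 4 (123 CPM), and KO HFD-Pio mouse 16 (97.44 CPM) below KO Pio mouse 13 (116 CPM). The highest of the other KO Pio mice had 97.15 CPM. The log2 fold changes of HFD were 0.64 ± 0.29 in WT and 1.08 ± 0.29 in KO mice without Pio, and 0.76 ± 0.29 and 0.78 ± 0.29 with Pio. Leaving out each mouse in turn kept these values between 0.41 and 1.32. The log2 fold changes of Pio on control diet and on HFD were 0.06 ± 0.29 and 0.18 ± 0.29 in WT mice and 0.00 ± 0.29 and -0.31 ± 0.29 in KO mice, and the former of the KO values was -0.18 without mouse 13. With 1 mouse left out at a time these values ranged from -0.16 to 0.22 and 0.07 to 0.29 in WT mice. In KO mice they ranged from -0.18 to 0.23 and -0.42 to -0.22, so both values on control diet took either sign.

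Msrb1 (ENSMUSG00000075705, chr17:24736642-24742778, plus strand) was highest in WT HFD mice. WT control mice had 478, 155, 383, 355 and 366 CPM, WT Pio mice 280.2, 470.5, 326, 337 and 229 CPM, WT HFD mice 471, 567, 719.9, 594 and 634 CPM and WT HFD-Pio mice 438, 362, 517, 403 and 392 CPM. WT HFD mice overlapped with control mice only through control mouse 831, the highest of its group, and control mouse 832 was the lowest. The log2 fold change of HFD against control was 0.78 ± 0.23 in WT mice and -0.02 ± 0.23 in KO mice. HFD-Pio against HFD gave -0.50 ± 0.23 in WT mice and 0.06 ± 0.23 in KO mice. KO control mice had 312, 267, 306, 334 and 303 CPM and KO Pio mice 226, 202, 75.2, 305 and 246 CPM, the lowest of which was mouse 13. Without mouse 13 the KO Pio difference moved from -0.53 to -0.29.

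Txnrd1 (ENSMUSG00000020250, chr10:82833951-82897712, plus strand), the cytosolic thioredoxin reductase, had 136 to 264 CPM (136 to 236 without mouse 829) in WT and 129 to 189 CPM (129 to 173 without mouse 13) in KO mice. Control and Pio mice of the WT had means of 207 ± 20.6 and 168 ± 18.9 CPM, and HFD and HFD-Pio mice of 194 ± 47.9 and 156 ± 14.8 CPM. The Pio differences in WT mice were -0.30 ± 0.13 on control diet and -0.32 ± 0.13 on HFD, and the latter was -0.17 without both libraries. In KO mice all 4 log2 fold changes lay between -0.07 and 0.07, and between 0.00 and 0.02 without mouse 13. Selenof (ENSMUSG00000037072, chr3:144570304-144597680, plus strand) ranged from 67.8 to 135 CPM (67.8 to 107 without mouse 829) in WT and 111 to 138 CPM in KO mice. Selenos (ENSMUSG00000075701, chr7:66079649-66089405, plus strand), which takes part in the removal of misfolded proteins from the endoplasmic reticulum, ranged from 35.1 to 63.1 CPM in WT and from 32.6 to 66.4 CPM (41.2 to 66.4 without mouse 13) in KO mice. The 8 log2 fold changes lay between -0.12 and 0.09 for Selenof and between -0.28 and 0.13 for Selenos, and between -0.09 and 0.09 and between -0.34 and 0.14 without both libraries. Those of Selenof in WT HFD-Pio against HFD and WT HFD against control changed sign, from -0.09 to 0.09 and from 0.09 to -0.09. The groups of both genes overlapped in all 8 comparisons.

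**Figure D3:**
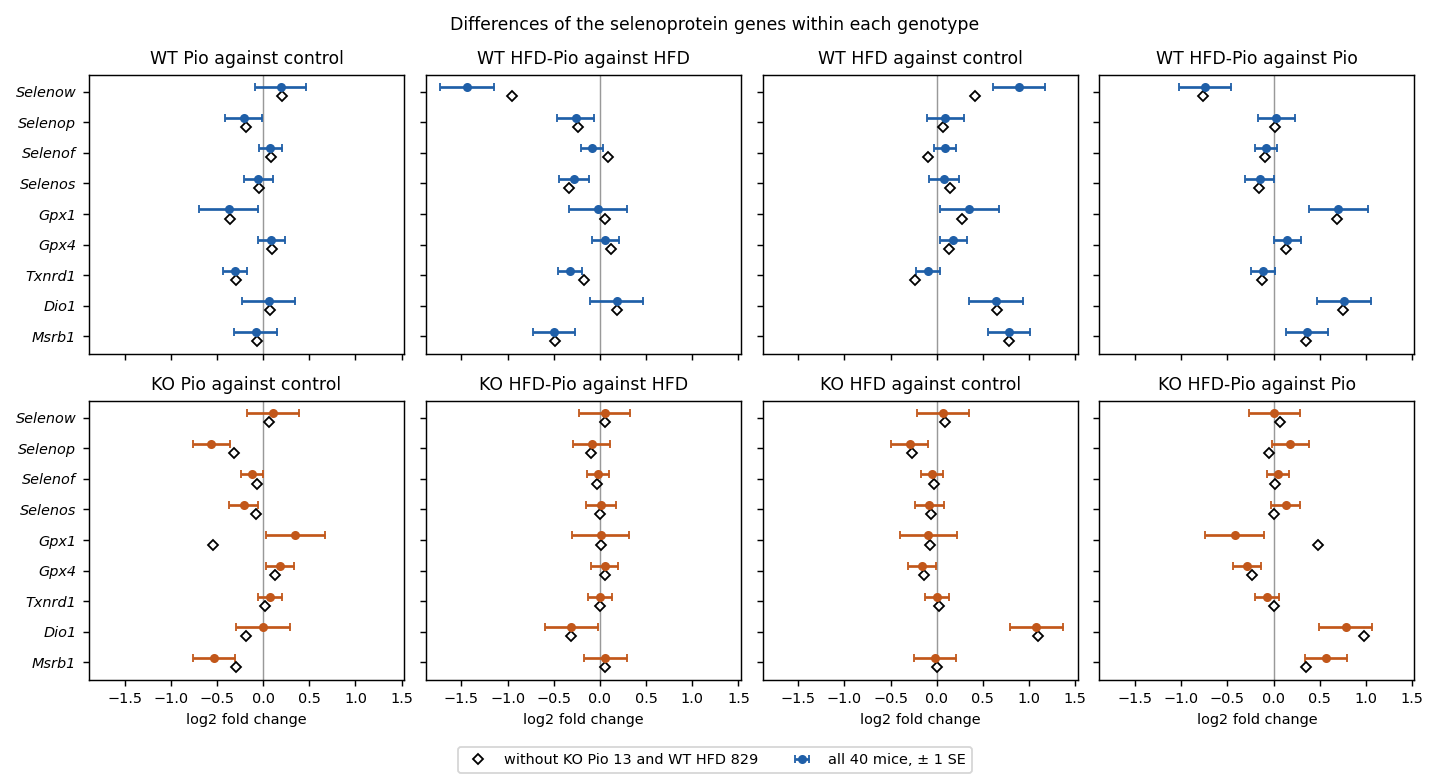
Log2 fold changes (x axes) of 9 selenoprotein genes in 8 comparisons within genotype; filled circles are the fit to all 40 mice with bars of 1 SE, and open diamonds the fit without KO Pio mouse 13 and WT HFD mouse 829. Gpx1 lies on opposite sides of 0 in the KO Pio comparisons with and without those mice, and Selenow in WT HFD-Pio against HFD stays below 0 in both.

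Calls were made with edgeR's quasi-likelihood test over 12942 genes, at a Benjamini-Hochberg adjusted p no higher than 0.05. Because the 10 genes were chosen on these comparisons, their calls are listed beside the share of all genes called, and nothing is read from them. In WT HFD-Pio against HFD mice 1 of 9 was called, Selenow, and 1.08% of all genes were. There 3 of 9 had an unadjusted p under 0.05 beside 15.6% of all genes, DESeq2 called 1 beside 2.78% and limma with sample weights 2 beside 8.40%. The edgeR call was lost without WT HFD mouse 829 and with the WT mice fitted alone, and was made without both libraries. None was called by edgeR in the other 7 comparisons within genotype, in which the share of all genes called was 3.91% for WT Pio against control, 1.31% for WT HFD against control and 1.22% for WT HFD-Pio against Pio. The share was 9.01% for KO Pio against control, 0.0155% for KO HFD-Pio against HFD, 0.185% for KO HFD against control and 4.96% for KO HFD-Pio against Pio. At an unadjusted p under 0.05 the counts of the 9 genes in these 7 comparisons, in the same order, were 1, 3, 3, 2, 0, 1 and 2, beside 17.9%, 13.2%, 14.2%, 27.6%, 1.04%, 4.60% and 24% of all genes. DESeq2 called 0, 1, 0, 1, 0, 1 and 0 of the 9, beside 6.28%, 2.91%, 2.94%, 11.0%, 0.0618%, 0.410% and 7.77% of all genes. Limma with sample weights called 1, 1, 4, 2, 0, 2 and 1 of the 9, beside 23.9%, 2.53%, 22.7%, 9.40%, 0%, 4.19% and 2.39% of all genes. The differences between KO and WT effects called 0 of 9 by edgeR, beside 7.87% of all genes for Pio on control diet, 0.0927% for Pio on HFD, 0.0618% for HFD without Pio and 0.0155% for HFD with Pio. In these, 1, 1, 2 and 2 of 9 had an unadjusted p under 0.05, beside 27.2%, 5.93%, 9.43% and 19.3% of all genes. DESeq2 called 0, 0, 0 and 0, beside 10.8%, 0.201%, 0.703% and 0.834%, and limma 0, 1, 1 and 1, beside 15.4%, 2.74%, 1.43% and 7.53%. The counts over all genes moved with single mice, mouse 13 among them. Without it 66 in place of 1166 genes were called for KO Pio against control, and 2007 in place of 506 for WT Pio against control. Without WT Pio mouse 845 the latter had 203 and WT HFD-Pio against Pio 47 in place of 158. The groups of 2 of the 9 genes did not overlap in WT HFD-Pio against HFD (Selenow and Selenop) and in WT HFD-Pio against Pio (Gpx1 and Dio1), nor did those of Gpx4 in KO HFD against control, beside 7.12%, 6.49% and 3.04% of all tested genes.

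The other 14 mouse selenoprotein genes make up the rest of the family, and 10 of them passed the filter. Dio2, Dio3, Gpx2 and Selenov did not, with 0 and 12, 88 and 70, 21 and 17, and 2 and 0 counts over the WT and KO mice. The counts called in this and the further lists stand against the same shares of all genes. Sephs2, which makes the selenium donor for selenocysteine and is a selenoprotein itself, was the most abundant per length, with 213 ± 75.0 CPM per kb in WT and 242 ± 13.8 in KO control mice. In WT mice 0 of the 10 were called by edgeR in the 4 comparisons, with 0, 1, 0 and 1 at an unadjusted p under 0.05 for Pio on control diet, Pio on HFD, HFD without Pio and HFD with Pio. DESeq2 called 0 in each of these, and limma 0, 0, 0 and 1. For KO HFD-Pio against HFD and KO HFD against control edgeR and DESeq2 called 0 of 10 in both. There 0 and 0 had an unadjusted p under 0.05 in edgeR, and limma called 0 and 1, beside 0% and 4.19% of all genes. KO Pio against control had 3 of 10 called as higher and 0 as lower by edgeR, beside 9.01% of all genes. There DESeq2 called 2 of 10, beside 11.0% of all genes, and limma 0, beside 9.40%. In edgeR 4 of 10 had an unadjusted p under 0.05, beside 27.6% of all genes. Selenoh, a nuclear redox protein, had 3.84, 3.20, 37.1, 4.59 and 4.60 CPM in KO Pio mice, against 4.05, 4.23, 4.60, 4.39 and 3.97 CPM in KO control mice. Its log2 fold change was 1.33 ± 0.41, with an edgeR adjusted p of 0.0402 (0.00837 to 0.983 over all alternatives but DESeq2, which gave no p for this gene). Selenom and Txnrd3 gave 1.11 ± 0.36 and 0.92 ± 0.23, with edgeR adjusted p of 0.0459 and 0.0199. In all 3 genes mouse 13 was the highest KO Pio mouse, and without it the edgeR adjusted p was 0.983 for Selenoh, 0.960 for Selenom and 0.227 for Txnrd3 (over all alternatives 0.0103 to 0.964 for Selenom and 0.00585 to 0.270 for Txnrd3). The log2 fold changes then were -0.05, 0.11 and 0.48 for Selenoh, Selenom and Txnrd3. Selenoh was also called, as 1 of the 10 beside 4.96% of all genes, as lower in KO HFD-Pio against Pio mice (-1.38 ± 0.41, edgeR adjusted p 0.0470), with 0.01 and 1.00 without mouse 13 (0.0111 to 1.00 over all alternatives but DESeq2). In that comparison DESeq2 called 1 of 10, beside 7.77% of all genes, and limma 0, beside 2.39%. In edgeR 3 of 10 had an unadjusted p under 0.05, beside 24% of all genes. The median log2 fold change of the 10 genes in KO Pio against control was 0.43, beside 0.029 over all tested genes, and -0.04 without mouse 13.

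Genes for the synthesis and insertion of selenocysteine and the handling of selenium were listed separately, and 17 of 18 were tested. In WT Pio against control mice edgeR called 2 as higher and 1 as lower of 17, beside 3.91% of all genes. Secisbp2l, a relative of the protein that binds the selenocysteine stem-loop, had 61.4, 104, 89.8, 70.5 and 73.5 CPM in WT control and 117, 98.9, 113, 124 and 162 CPM in WT Pio mice, groups that overlapped through control mouse 832. Its log2 fold change was 0.62 ± 0.15 (edgeR adjusted p 0.0133, 0.000158 to 0.0811 over all alternatives). Ncl, or nucleolin, which binds some selenoprotein mRNAs among many RNAs, had 120.3, 138, 111, 125 and 131 CPM in WT control and 149, 213, 192, 177 and 305 CPM in WT Pio mice, without overlap. The log2 fold change of Ncl was 0.72 ± 0.21 (edgeR adjusted p 0.0432, 6.66e-05 to 0.210 over all alternatives), and 20 of 40 fits with 1 mouse left out called it. Sars, the seryl-tRNA synthetase that also charges the selenocysteine tRNA, fell from 99.3 ± 12.9 to 61.0 ± 7.58 CPM (log2 fold change -0.70 ± 0.17, edgeR adjusted p 0.0136, 4.26e-05 to 0.0446 over all alternatives), a call made in all 40 such fits. Most of those fits left out a mouse of neither group compared. Without WT Pio mouse 845 the log2 fold changes and edgeR adjusted p were 0.50 (0.0811) for Secisbp2l, 0.54 (0.210) for Ncl and -0.70 (0.0381) for Sars. Under Pio, HFD lowered both Secisbp2l (-0.61 ± 0.15, edgeR adjusted p 0.0304, 0.000810 to 0.195 over all alternatives) and Ncl (-0.81 ± 0.21, edgeR adjusted p 0.0460, 2.84e-05 to 0.274 over all alternatives) in WT mice, and these were the 2 of 17 genes called there, beside 1.22% of all genes. Without mouse 845 these were -0.50 (0.195) and -0.64 (0.274). The WT Pio group is shared by both comparisons, in which DESeq2 called 3 and 2 of 17, beside 6.28% and 2.94% of all genes, and limma 8 and 4, beside 23.9% and 22.7%. In edgeR 6 and 4 of 17 had an unadjusted p under 0.05, beside 17.9% and 14.2% of all genes. In WT HFD-Pio against HFD and WT HFD against control 0 of 17 were called by edgeR, with 5 and 3 at an unadjusted p under 0.05, while DESeq2 called 1 in each and limma 4 and 0, the latter beside 8.40% and 2.53% of all genes. WT HFD mice had 56.7 ± 11.5 CPM of Secisbp2l, below control (79.9 ± 17.1) and HFD-Pio mice (80.4 ± 16.7). For Ncl the HFD mean of 157 ± 38.8 CPM was above both (125 ± 10.2 and 118 ± 18.5). Sars had 87.1 ± 8.92 CPM on HFD and 61.9 ± 10.9 on HFD-Pio. KO control and KO Pio means were 89.3 ± 7.02 and 114 ± 14.1 CPM for Secisbp2l, 189 ± 10.8 and 152 ± 57.7 for Ncl and 64.0 ± 7.62 and 52.4 ± 19.4 for Sars.

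In KO mice Pstk, the kinase that prepares the selenocysteine tRNA, was called as higher with Pio on control diet (0.91 ± 0.25, edgeR adjusted p 0.0275, 0.00641 to 0.510 over all alternatives), as 1 of 17 beside 9.01% of all genes. Mouse 13 had 20.8 CPM and the other KO Pio mice 4.87 to 6.50 CPM, and without it the log2 fold change was 0.33 (edgeR adjusted p 0.470). Selenbp2, a selenium-binding protein, had 76.1, 51.2, 5.25, 89.0 and 31.8 CPM in KO Pio and 261, 166, 429, 552 and 498 CPM in KO HFD-Pio mice, without overlap. Its log2 fold change was 2.91 ± 0.81 (edgeR adjusted p 0.0410, 0.0104 to 0.396 over all alternatives), and 2.62 with an adjusted p of 0.395 without mouse 13. Selenbp2 has a near-identical relative, Selenbp1, so its counts are uncertain. Upf1, a factor of nonsense-mediated decay, was called as lower in the same comparison (-0.82 ± 0.25, edgeR adjusted p 0.0490, 0.0119 to 1.00 over all alternatives), with 349 CPM in mouse 13 against 69.8 to 81.6 CPM in the other KO Pio mice, and -0.04 without it. Selenbp2 and Upf1 were the 2 of 17 called there, beside 4.96% of all genes. KO HFD-Pio against HFD and KO HFD against control had 0 of 17 called by edgeR, 0 and 1 at an unadjusted p under 0.05, 0 called by DESeq2 in both, and 0 and 1 by limma. The Pio effect on control diet differed between the genotypes for Ncl (-1.04 ± 0.30 as KO minus WT, edgeR adjusted p 0.0300, 0.000533 to 0.0788 over the alternatives that fit both genotypes) and Trnau1ap (0.95 ± 0.30, edgeR adjusted p 0.0454, 0.0144 to 0.360 over the same alternatives), 2 of 17 beside 7.87% of all genes. Without mouse 13 these were -0.80 (edgeR adjusted p 0.0219) and 0.52 (edgeR adjusted p 0.124), and without WT Pio mouse 845 -0.85 (0.0788) and 0.86 (0.0881). For KO Pio against control, KO HFD-Pio against Pio and this difference between the genotypes DESeq2 called 2, 3 and 2 of 17, beside 11.0%, 7.77% and 10.8% of all genes, and limma 2, 1 and 6, beside 9.40%, 2.39% and 15.4%. In edgeR 6, 6 and 7 of 17 had an unadjusted p under 0.05, beside 27.6%, 24% and 27.2% of all genes.

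Redox enzymes without selenocysteine formed a further list, of which 24 of 25 genes were tested. Cat, or catalase, was called as higher in WT Pio than in WT control mice, going from 3352, 1685, 3336, 3167 and 2817 CPM to 3024, 6158, 4092, 4184 and 7281 CPM, groups that overlapped through Pio mouse 841. The log2 fold change was 0.78 ± 0.23 (edgeR adjusted p 0.0433, 0.00453 to 0.187 over all alternatives), and without mouse 845, the highest, 0.61 (0.187). It was the 1 gene of 24 called there, beside 3.91% of all genes. Msrb2, the mitochondrial relative of Msrb1, was the 1 gene of 24 called in WT HFD-Pio against HFD mice, beside 1.08% of all genes (0.68 ± 0.16, edgeR adjusted p 0.0266, 0.00366 to 0.101 over all alternatives), and without mouse 829 it had 0.60 (edgeR adjusted p 0.0995). Its means were also higher with Pio where it was not called by edgeR. They were 7.30 ± 1.52 and 10.0 ± 1.52 CPM in WT control and Pio mice and 7.52 ± 0.79 and 9.74 ± 1.15 CPM in KO control and Pio mice. KO HFD and HFD-Pio mice had 7.64 ± 1.24 and 8.29 ± 0.862 CPM. WT HFD against control and WT HFD-Pio against Pio had 0 of 24 called by edgeR, 5 and 5 at an unadjusted p under 0.05, 1 and 0 by DESeq2, and 1 and 10 by limma, the latter beside 2.53% and 22.7% of all genes. In KO mice Glrx5 was called in HFD-Pio against Pio, as 1 of 24 beside 4.96% of all genes (-1.21 ± 0.37, edgeR adjusted p 0.0488, 0.0114 to 1.00 over all alternatives but DESeq2, which gave no p for it), with 345 CPM in mouse 13 and 36.7 to 54.8 CPM in the other KO Pio mice, and -0.02 without it. The other KO comparisons had 0 of 24 called by edgeR, with 6, 0 and 0 at an unadjusted p under 0.05 for Pio on control diet, Pio on HFD and HFD without Pio, 1, 0 and 0 by DESeq2 and 4, 0 and 0 by limma. The Pio effect on control diet differed between the genotypes for Cat (-1.17 ± 0.32 as KO minus WT, edgeR adjusted p 0.0256, 0.00591 to 0.103 over the alternatives that fit both genotypes), Msra (-0.81 ± 0.24, edgeR adjusted p 0.0321, 0.0113 to 0.117 over the same alternatives) and Prdx4 (1.37 ± 0.39, edgeR adjusted p 0.0294, 0.000649 to 0.250 over the same alternatives), 3 of 24 beside 7.87% of all genes. Without mouse 13 Cat had -1.01 (edgeR adjusted p 0.0352), Msra -0.66 (0.0429) and Prdx4 0.81 (0.0953), and without WT Pio mouse 845 they had -0.99 (0.0626), -0.72 (0.0666) and 1.18 (0.0609). For WT Pio against control, WT HFD-Pio against HFD, KO HFD-Pio against Pio and this difference between the genotypes DESeq2 called 3, 1, 0 and 4 of 24, beside 6.28%, 2.78%, 7.77% and 10.8% of all genes, and limma 9, 4, 1 and 4, beside 23.9%, 8.40%, 2.39% and 15.4%. In edgeR 5, 3, 4 and 5 of 24 had an unadjusted p under 0.05, beside 17.9%, 15.6%, 24% and 27.2% of all genes.

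All 12 genes of thyroid hormone handling and response, listed beside Dio1, were tested. Thra, a thyroid hormone receptor, was called in KO Pio against control, as 1 of 12 beside 9.01% of all genes (0.75 ± 0.22, edgeR adjusted p 0.0299, 0.00693 to 0.514 over all alternatives), and without mouse 13 the log2 fold change was 0.25 (edgeR adjusted p 0.487). There DESeq2 called 2 of 12, beside 11.0% of all genes, and limma 1, beside 9.40%. In edgeR 3 of 12 had an unadjusted p under 0.05, beside 27.6% of all genes. For HFD-Pio against HFD, HFD against control and HFD-Pio against Pio in KO mice 0 of 12 were called by edgeR, with 0, 0 and 2 at an unadjusted p under 0.05. In the same order DESeq2 called 0, 0 and 1, and limma 0, 0 and 1, the latter beside 0%, 4.19% and 2.39% of all genes.

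The feature shared by the genes is the selenocysteine codon, and its surroundings are shown for the genes described most closely. GENCODE M21 annotates it in all 24 listed genes, once in each of the 10 except Selenop, which has 10 such codons, of which the first is shown. The coding bases around it, from GENCODE transcripts of GRCm38 in the sense direction, are given with the TGA codon in capitals.
Selenow: tattgtggagctTGAggctataagccc
Selenop: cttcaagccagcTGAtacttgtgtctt
Gpx1: gtcgcgtctctcTGAggcaccacgatc
Gpx4: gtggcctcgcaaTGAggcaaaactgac
Dio1: ggcagttgcaccTGAccttcatttctt
Msrb1: caatcaagattcTGAatatttagcagc

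These codons lie in exons at chr7:15920464-15920466 on the minus strand (Selenow, exon 2 of 6), chr15:3274848-3274850 on the plus strand (Selenop, exon 2 of 5), chr9:108339451-108339453 on the plus strand (Gpx1, exon 1 of 2), chr10:80054737-80054739 on the plus strand (Gpx4, exon 3 of 7), chr4:107297700-107297702 on the minus strand (Dio1, exon 2 of 4) and chr17:24740158-24740160 on the plus strand (Msrb1, exon 3 of 5). A stop codon well before the last exon junction is a known mark for nonsense-mediated decay when it is read as a stop. The distance from the codon to that junction was 243 bases in Selenow, 105 in Gpx1, 342 in Gpx4, 303 in Dio1, 66 in Msrb1, 78 in Selenof and 357 in Selenop. In Selenos, Txnrd1 and Txnrd2 the codon is in the last exon, at codon 189 of 190, 498 of 499 and 526 of 527 before the stop. Promoters from RefSeq, which cover the start of each gene on GRCm38.p6, were found for all 10 genes. The motif TGACNNNGC, the core of the antioxidant response element, was present on either strand in 1 of the 17 promoters of the 10 genes, at Txnrd1, and in 12.4% of all 32851 promoters. The DR1 repeat, to which PPARγ binds together with RXR, was searched on both strands in its exact consensus form. This form was found in 0 of the 17 and in 0.0396% of all promoters, and inexact repeats were not searched.

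Over the 20 WT mice, the gene outside the selenoprotein list with the most similar profile of log2 CPM was found for each member among 9265 genes. Pearson r is given over 20 WT mice, 20 KO mice and the 19 KO mice without mouse 13. For Selenow the gene was Rab11b (r 0.98, -0.07 and -0.24). Gpx1 was most like Igfals (r 0.95, 0.95 and 0.83), Msrb1 most like Ggact (0.95, 0.89 and 0.77) and Dio1 most like Akr1c14 (0.90, 0.24 and 0.40). The closest genes of the other members were Abce1 for Selenop (0.87, 0.89 and -0.35), Abhd14b for Selenof (0.94, -0.37 and -0.11), Uimc1 for Selenos (0.81, 0.56 and -0.09), Timm13 for Gpx4 (0.85, 0.69 and 0.38) and Pigb for Txnrd1 (0.88, -0.53 and 0.11). Each WT value is the highest of 9265 values over mice that share groups, libraries and base composition, and is a description only.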

How the data were processed

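Liver RNA of 40 mice in 8 groups was measured by poly-A RNA sequencing. The authors aligned the reads to GRCm38 (Ensembl 76) with STAR 2.0.4b and assigned reads to genes with featureCounts 1.4.5 of Subread, per the submitters' processing notes, using reads that aligned once and matched a single gene; the strand setting was not given in the sources used here. The deposited values are raw counts per gene, with a table for each genotype, and the deposited GC content of each gene is in percent. All sample columns matched a mouse by number and group.

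Repeated lines (598 in the KO and 574 in the WT table, identical in all genes) were reduced to 1, and the tables were joined on 40594 Ensembl identifiers, leaving out 96 that occur in the WT table only. After removal of 355 rRNA genes, 12942 genes that reached 1 CPM in 5 or more mice were fitted in R 4.3.3 with edgeR 4.0.16 (TMM, robust quasi-likelihood) in 1 model of 8 group means. Benjamini-Hochberg adjustment ran over all tested genes in each of 12 comparisons: 8 within genotype and 4 differences between the effects in KO and WT mice. The code was tested on simulated data. Alternatives were DESeq2 1.42.0, limma 3.58.1 with sample weights, no filter on low counts, each genotype alone, and each of 40 mice left out. Leaving out both libraries that stood apart, and the GC difference as a covariate, were chosen after seeing the data. Log2 CPM for profiles and for the GC difference used a prior count of 2. Tables and figures were made with Python 3.11.15, pandas 2.3.3, numpy 2.4.6 and matplotlib 3.10.9. Standard errors hold variation between animals and in counting. That of a log2 fold change was derived from edgeR's test, as its absolute value divided by the square root of the F statistic.

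The members and the gene lists were chosen with earlier results of these data known. Genes named are the 10 members, the 14 other selenoprotein genes, and from the lists of selenocysteine machinery, redox partners and thyroid hormone genes those called in at least 1 comparison; the WT comparisons of the thyroid hormone list are not reported here, and genes called only for a difference between genotypes were named after their values were seen. For each member the most similar gene with a mean of at least 5 CPM is also named. Gene positions, exon lengths and selenocysteine codons came from GENCODE M21, and promoters from RefSeq. Protein sequences were not used here.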

Additional observations from a re-analysis of the deposited data

Results flagged for a closer look

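In 4 of 72 sets of 5 mice (9 genes in 8 groups) 1 mouse lay far from the other 4 on the log2 scale, and chance alone gives about 1 in 20. KO Pio mouse 13 was far below the others for Selenop (1579 CPM against 4856 to 6027) and far above them for Gpx1 (5117 CPM against 689 to 1131). The same library had a GC difference of 3.40, and the part of its base composition in these values was not tested. WT control mouse 832 was low for Msrb1 (155 CPM against 355 to 478), and KO control mouse 4 was slightly high for Selenof (138 CPM against 125 to 129). Mouse 832 was also the lowest WT control mouse for Selenow, Selenop, Selenof, Gpx1, Gpx4 and Dio1, and the highest for Txnrd1. Its summed hepatocyte markers, 74148 CPM, were the lowest of the WT mice, close to WT Pio mice 845 and 841 with 75638 and 76736 CPM. The part of these markers in the values of mouse 832 was not tested.

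The effect of Pio on control diet differed between KO and WT mice in edgeR's test of the difference for 5 genes of the related lists, as KO minus WT on the log2 scale: Cat -1.17, Msra -0.81, Ncl -1.04, Prdx4 1.37 and Trnau1ap 0.95. Without KO Pio mouse 13 the edgeR adjusted p was 0.0953 for Prdx4 and 0.124 for Trnau1ap, and at most 0.0429 for the other 3. Without WT Pio mouse 845 it was 0.0609 to 0.0881 for the 5 genes. With the GC difference as a covariate it was 0.0718 for Ncl, 0.103 for Cat, 0.117 for Msra, 0.250 for Prdx4 and 0.360 for Trnau1ap.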

How the results depend on the processing

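The number of genes called moved with most settings. In the order WT Pio against control, HFD-Pio against HFD, HFD against control and HFD-Pio against Pio, the same 4 in KO mice, and the KO minus WT differences for Pio on control diet, Pio on HFD, HFD without Pio and HFD with Pio, edgeR called 506, 140, 170, 158, 1166, 2, 24, 642, 1018, 12, 8 and 2 genes. DESeq2 called 813, 360, 376, 380, 1427, 8, 53, 1005, 1392, 26, 91 and 108, limma with sample weights 3095, 1087, 327, 2937, 1216, 0, 542, 309, 1998, 354, 185 and 975, and edgeR without a filter on low counts 315, 70, 101, 86, 818, 0, 15, 81, 565, 12, 4 and 1. With each genotype fitted alone the 8 comparisons within genotype gave 936, 156, 345, 203, 0, 0, 0 and 0, and the differences between genotypes could not be fitted. Of the settings chosen after seeing the data, leaving out KO Pio mouse 13 and WT HFD mouse 829 gave 2443, 701, 710, 1580, 100, 0, 56, 12, 973, 18, 129 and 17, and the GC difference as a covariate 1788, 1183, 762, 995, 64, 0, 44, 13, 483, 26, 101 and 1. With 1 mouse left out at a time the counts ranged over 203 to 2007, 39 to 1501, 58 to 845, 47 to 1119, 66 to 2318, 0 to 5, 2 to 50, 2 to 2024, 537 to 1976, 8 to 21, 1 to 136 and 1 to 391. Leaving out KO Pio mouse 13 gave the highest of these in 7 comparisons. All groups share 1 estimate of the spread, and the cause was not tested.

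Among the log2 fold changes of the 9 tested members, 10 values moved by more than 1 SD between mice and 3302 did not. Most of these values came from fits that left out 1 mouse, mostly of neither group compared. Such a log2 fold change could hardly move, so the 3302 is no measure of robustness. The call of Selenow in WT HFD-Pio against HFD was lost without WT HFD mouse 829 and with each genotype fitted alone. Of the calls in the other lists, Selenoh changed sign: from 1.33 in KO Pio against control to -0.05 without KO Pio mouse 13, -0.05 without both libraries and -0.08 with the GC covariate, and from -1.38 in KO HFD-Pio against Pio to 0.01, 0.01 and 0.03. With 1 mouse left out at a time these values ranged from -0.05 to 1.60 and from -1.64 to 0.01. A further 273 values of called genes lost the call with the same direction, and 725 kept both. No paired analysis was possible because the groups share no replicate numbers. Txnrd2 and 4 other selenoprotein genes did not pass the filter on counts and entered only the fit without a filter. DESeq2 gave no p for 3 calls of edgeR, that of Glrx5 and both of Selenoh.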
